A study of Caenorhabditis elegans with 2 samples.

Results

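The genes described here are the nuclear genes of the biotype ncRNA in the Caenorhabditis elegans gene models (WBcel235, Ensembl release 115) that lie more than 100 bp from every tRNA, snoRNA and snRNA gene and from rpr-1, the RNase P RNA gene. Of 46890 nuclear genes, 7764 had this biotype, and 7305 were left after 459 that overlapped or lay near a structural RNA gene were set aside. Most of them are short and carry only a sequence name: the median length was 141 bp (range 17 to 9094 bp), and 2423 overlapped another gene of the set. Each was scored by the summits (the highest points) of KLF-2 ChIP-seq peaks within 100 bp of the gene. The rule uses the annotation alone, but it was chosen with earlier results of these data known.

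The peaks came from 1 group of 2 biological replicates of whole mid-stage embryos aged 1.5 hours, collected by bleaching. Both carried an EGFP and 3xFLAG tag inserted at klf-2 by CRISPR, and the tagged protein was precipitated with an antibody against GFP from sonicated chromatin. No untagged or mutant group was analysed here, and read depth is unknown. The strain label gives linkage group II for the allele whereas the annotation has klf-2 on V, so where the insertion lies cannot be told from the labels. Whole embryos of 1 tagged strain were used, so the lists do not say in which cells a site was occupied.

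KLF-2 is a member of the Krüppel-like family, zinc-finger transcription factors whose relatives in other animals bind GC-rich boxes. The biotype ncRNA is a mixed class. It holds a few RNAs with known work, such as the RNA of the signal recognition particle, which directs nascent secreted proteins to the endoplasmic reticulum, the RNA of RNase MRP, an enzyme of ribosomal RNA processing, and the Y RNA, a small cytoplasmic RNA. Several such RNAs are made by RNA polymerase III, which at tRNA genes is directed by internal promoter elements called the A box and the B box, and at some other genes by elements upstream that include a TATA box. For most members no function is annotated.

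The sequences of the members under the highest peaks are shown first, on the strand of the gene, from the RefSeq genome WBcel235, whose coordinates are those of ce11. In the first set capitals mark letters of the B box (GTTCGANNC or GTTCAANNC) and of a core of the A box (GCNNAGTGG) on either strand. The genes C14F11.14 (chrX:6207835-6207981, plus strand) and F36H1.17 (chrIV:11026131-11026219, minus strand) are printed whole. T28D6.10 (chrIII:11371357-11371524, minus strand) and K10H10.11 (chrII:14496991-14497170, plus strand) are printed with 100 bases before the gene, since their summits lay upstream.
C14F11.14: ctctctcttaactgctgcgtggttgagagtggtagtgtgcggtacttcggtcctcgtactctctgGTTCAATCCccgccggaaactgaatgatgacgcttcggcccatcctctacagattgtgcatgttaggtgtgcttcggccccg
F36H1.17: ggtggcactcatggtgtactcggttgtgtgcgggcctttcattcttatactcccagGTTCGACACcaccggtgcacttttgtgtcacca
T28D6.10: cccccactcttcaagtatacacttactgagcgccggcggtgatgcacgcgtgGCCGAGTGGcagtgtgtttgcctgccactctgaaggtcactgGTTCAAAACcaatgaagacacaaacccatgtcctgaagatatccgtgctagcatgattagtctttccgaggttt
K10H10.11: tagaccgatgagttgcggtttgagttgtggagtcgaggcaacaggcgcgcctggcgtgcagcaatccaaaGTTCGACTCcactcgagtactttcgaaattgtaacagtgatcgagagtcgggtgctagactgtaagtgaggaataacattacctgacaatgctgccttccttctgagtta

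A further set shows the 100 bases before 5 small RNA genes, with capitals for GTCNNCCGC and for TATATA on the strand of the gene. These letters were chosen after the sequences of mrpr-1, W01D2.7 and F08G2.13 had been seen. The windows are chrII:7200133-7200232 (plus) for mrpr-1, chrII:14804402-14804501 (plus) for W01D2.7, chrII:13834524-13834623 (minus) for F08G2.13, chrX:14477445-14477544 (plus) for M163.12 and chrIV:7499408-7499507 (plus) for yrn-1. The last 2 are shown for contrast, because neither gene had a summit within 100 bp in the conservative or the ranked list.
mrpr-1: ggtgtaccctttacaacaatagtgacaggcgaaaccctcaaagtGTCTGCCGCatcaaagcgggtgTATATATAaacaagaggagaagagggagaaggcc
W01D2.7: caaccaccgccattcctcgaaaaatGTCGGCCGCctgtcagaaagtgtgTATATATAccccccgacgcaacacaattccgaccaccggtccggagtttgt
F08G2.13: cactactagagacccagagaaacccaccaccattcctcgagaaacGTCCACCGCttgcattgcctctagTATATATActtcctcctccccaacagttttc
M163.12: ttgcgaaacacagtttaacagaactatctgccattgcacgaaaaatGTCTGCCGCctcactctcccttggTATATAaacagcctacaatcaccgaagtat
yrn-1: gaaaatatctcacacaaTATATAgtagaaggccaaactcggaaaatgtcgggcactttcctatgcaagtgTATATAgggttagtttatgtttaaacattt

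The signal recognition particle RNA genes are represented by srpr-2.1 (chrIII:5211220-5211518, plus strand), which had a conservative peak, and srpr-3 (chrV:9293334-9293632, minus strand), which had none. Capitals mark the bases that differ in their alignment, 53 in each gene.
srpr-2.1: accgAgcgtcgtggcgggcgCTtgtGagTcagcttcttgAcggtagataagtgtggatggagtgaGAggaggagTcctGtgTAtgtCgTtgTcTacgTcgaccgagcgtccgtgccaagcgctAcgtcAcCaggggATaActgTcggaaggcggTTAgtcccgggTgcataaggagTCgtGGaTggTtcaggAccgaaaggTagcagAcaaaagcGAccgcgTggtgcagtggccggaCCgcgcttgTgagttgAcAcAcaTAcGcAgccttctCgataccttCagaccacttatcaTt
srpr-3: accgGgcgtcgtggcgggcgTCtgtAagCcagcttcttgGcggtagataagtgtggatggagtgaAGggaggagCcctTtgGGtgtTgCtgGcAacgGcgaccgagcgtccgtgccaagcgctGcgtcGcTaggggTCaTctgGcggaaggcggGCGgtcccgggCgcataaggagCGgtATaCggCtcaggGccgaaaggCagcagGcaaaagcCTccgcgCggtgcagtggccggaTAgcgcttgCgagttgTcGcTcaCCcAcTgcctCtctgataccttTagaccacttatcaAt

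Finally, 101 bases centred on the summit are shown for a pair of high peaks without B box letters within 50 bp, on the minus strand. They are F52D10.7 (chrX:11605867-11605967) and WBGene00199919 (chrIV:14033996-14034096), with capitals for CCACCC or CCGCCC, the Krüppel-like box, on either strand.
F52D10.7: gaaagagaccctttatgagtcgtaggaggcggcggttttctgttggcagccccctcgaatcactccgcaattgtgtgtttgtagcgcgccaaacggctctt
WBGene00199919: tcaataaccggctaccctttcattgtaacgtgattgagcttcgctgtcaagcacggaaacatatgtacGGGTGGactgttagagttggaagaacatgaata

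In the conservative list, the authors' thresholded list of 1032 peaks from both replicates, 92 of the 7305 members had a summit within 100 bp. This is 1.26% (exact 95% binomial interval 1.02 to 1.54), against 2.13% of all nuclear genes. It was 2.29% over all genes that are not members, 1.67% when structural RNA genes are left out of these, and 2.34% over protein-coding genes, whose median length was 2027 bp. The share was thus below the background over genes, in a class with a shorter median length. Among members of under 100 bp the share was 0.78%, among those of 100 to under 200 bp 0.927%, and among those of 200 bp or more 2.83% (2.03 to 3.84). The part of gene length in the difference from other classes was not tested.

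Other short classes lay on both sides of the members. Of 261 miRNA genes 5 had a peak (1.92%, 0.625 to 4.41), and of 15363 piRNA genes 1 had one. The structural RNA classes were higher, with 33.3% of tRNA genes, 15.6% of snoRNA genes and 5.43% of snRNA genes, and the 459 ncRNA genes set aside reached 31.8%. This last share belonged to genes that overlapped a structural RNA gene (138 of 427) or lay 1 to 50 bp away (8 of 26). None of the 6 at 51 to 100 bp, just outside the set, and none of the 21 at over 100 and up to 200 bp, just inside it, had a peak. All intervals cover the counting of genes only, and genes that share a peak are not independent.

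**Figure D1:**
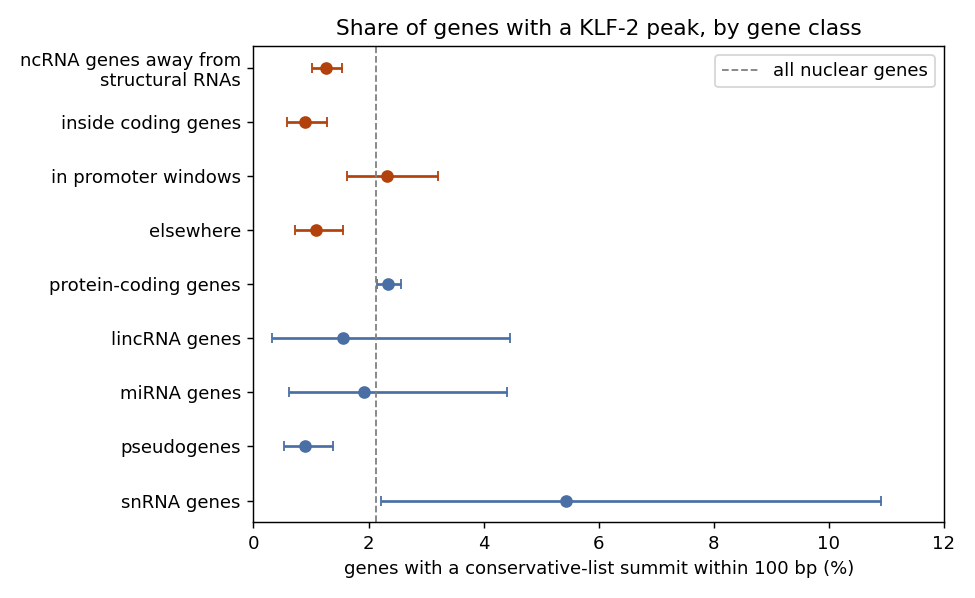
Percent of genes with a conservative-list summit within 100 bp (x axis), for the ncRNA genes away from structural RNAs and their 3 location classes (orange) and for other classes (blue). Bars are exact 95% binomial intervals and the dashed line is the 2.13% of all nuclear genes. The promoter-window class, at 2.32%, is the one orange point that is not left of the line.

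By location, members that overlapped a promoter window of a protein-coding gene (1000 bp upstream to 500 bp downstream of a transcript start) had a peak most often, in 36 of 1551 (2.32%, 1.63 to 3.20). Members wholly inside a protein-coding gene had one in 28 of 3157 (0.887%, 0.590 to 1.28), and members elsewhere in 28 of 2597 (1.08%, 0.718 to 1.55). The intervals of the inside and promoter classes do not overlap. However, the 36 promoter members rest on 26 distinct best peaks and the 28 inside members on 22. Members that share a peak are not independent, so these intervals are too narrow and the separation is a description. The genome had the same order: 0.517% of the bases of promoter windows outside coding genes, 0.142% of the bases inside coding genes and 0.217% of the other bases lay within 100 bp of a summit.

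Within coding genes, orientation made little difference to the share. It was 0.895% for 1006 members on the strand of their host (9 genes) and 0.899% for 2114 on the opposite strand (19 genes). Members confined to introns had a peak in 23 of 2503 (0.919%) and members that touched an exon in 5 of 654 (0.765%), with overlapping intervals. Members that overlapped another member had a peak in 46 of 2423 (1.90%, 1.39 to 2.52), and members on their own in 46 of 4882 (0.942%, 0.691 to 1.25). Overlapping members can share a peak, so the first interval counts some peaks more than once and is too narrow. Across chromosomes the share ran between 0.905% on IV and 1.97% on III, and these intervals overlap.

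The 92 members were marked by 72 distinct peaks, 6.98% of the conservative list. Of these peaks 51 lay near 1 member, 19 near 2 and 2 near 3, and 19 of the 21 best peaks that members shared served members on opposite strands. None of the 72 summits lay within 100 bp of a structural RNA gene. The 3 lowest, with signal values of 14.9 (Y53C10A.23), 14.8 (C14C11.11) and 7.56 (Y39A1A.28), stood beside a higher peak of the same gene, and the 72 peaks rest on 69 distinct pairs of replicate peaks.

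Counted per length of sequence, members stood above protein-coding genes, whereas per gene they stood below them. The windows from 100 bp before to 100 bp after the members cover 2.19 Mb and held 72 summits, or 32.9 per Mb (exact 95% Poisson interval 25.7 to 41.4). The rest of the nuclear genome held 9.79 per Mb, so that the density near members was 3.36 times as high, and 4.59 times as high as the 7.17 per Mb that remain when the windows around structural RNA genes are also left out. The excess appeared in each location class. Inside coding genes the densities were 26.6 near members and 4.51 per Mb away from them (structural RNA windows left out), in promoter windows 61.4 and 21.8, and elsewhere 26.1 and 6.72. The intervals of these pairs do not overlap. Windows built in the same way held 7.65 summits per Mb around protein-coding genes, 5.23 around pseudogenes and 0.451 around piRNA genes. They held 69.0 around miRNA genes (22.4 to 160.9), 171.5 around snRNA genes, 457.3 around snoRNA genes and 1201.6 around tRNA genes, which stood above the members per gene as well.

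**Figure D2:**
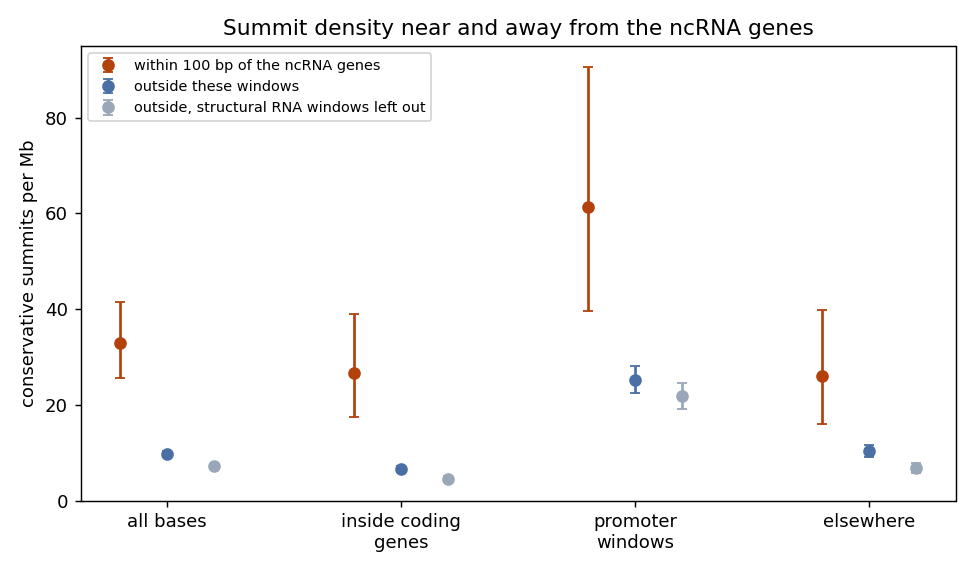
Conservative-list summits per Mb (y axis) within 100 bp of the ncRNA genes (orange), outside these windows (blue) and outside with structural RNA windows left out (grey), by location of the base. Bars are exact 95% Poisson intervals. In every class the orange point lies above the other points, from 26.1 per Mb elsewhere to 61.4 per Mb in promoter windows.

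The ranked list holds 111583 peaks without a threshold. In it 3481 members (47.7%, 46.5 to 48.8) had a summit within 100 bp, against 49.4% of all nuclear genes, 49.7% of the genes that are not members, 49.3% of those that are neither members nor structural RNA genes, and 77.5% of protein-coding genes. The share was similar inside coding genes (46.4%), in promoter windows (50.1%) and elsewhere (47.7%). The share of members was thus close to the background over all genes. That background mixes unlike classes, among them 15363 piRNA genes with a median length of 21 bp, of which 10.1% had a summit. The best ranked peak of a member had a median signal value of 30.4, and all peaks of the list a median of 23.8. A best peak within the highest 1000 was found for 76 members, within the highest 5000 for 388 and within the highest 10000 for 672.

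The density near members depended on rank. With structural RNA windows left out, the 1000 highest peaks had 25.1 summits per Mb near members and 7.11 away from them, a ratio of 3.53. The ratio was 2.86 for ranks 1001 to 5000, 2.09 for ranks 5001 to 10000 and 1.40 for ranks 10001 to 50000. For the lowest ranks, 50001 to 111583, it was 1.07, with 659 summits per Mb near members and 614 away from them. These bins were chosen after the data were seen. The best conservative peak of each member is among the 2741 highest of this list, so the bins are no separate evidence for the excess. Lower conservative peaks beside them, at 14.9, 14.8 and 7.56, lie below the list median of 23.8.

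**Figure D3:**
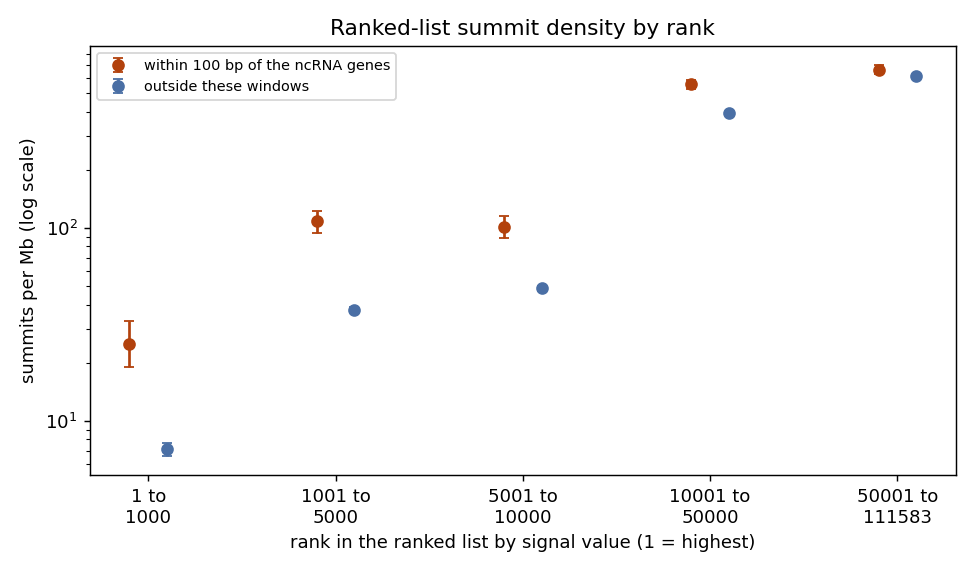
Ranked-list summits per Mb (y axis, log scale) within 100 bp of the ncRNA genes (orange) and outside these windows (blue), for 5 ranges of rank (x axis, 1 is the highest signal value), structural RNA windows left out. Bars are exact 95% Poisson intervals. The gap between the points narrows from a ratio of 3.53 at the highest ranks to 1.07 at the lowest.

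The signal value is the authors' peak height, used here to rank peaks within a list. Peaks at members had a median of 86.7, near that of 88.1 for the 701 peaks away from both members and structural RNA genes, and below the 140.1 of the 259 peaks at structural RNA genes. The highest, 385, ranked 16 of 1032. Of the 72 peaks, 4 were among the highest 100 and 11 (15.3%) among the highest 258. Members' peaks were thus more numerous per Mb than peaks elsewhere but not higher.

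Replicate values are the heights in each replicate's own ranked list, at the position recorded for that replicate beside each conservative peak, and were found for both replicates in 71 of 72. The median was 46.7 in replicate 1 and 44.6 in replicate 2, and replicate 1 was the higher in 36. The ratio of replicate 1 to replicate 2 ran between 0.634 and 1.67. In the thresholded lists of the single replicates, 22 of the peaks were found for replicate 1 and 24 for replicate 2, 17 (23.6%) were in both, against 28.7% of the whole conservative list, and 43 were in neither. The 12 highest peaks were all among the 17, and most of the lower ones passed the threshold only in the list made from both replicates.

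**Figure D4:**
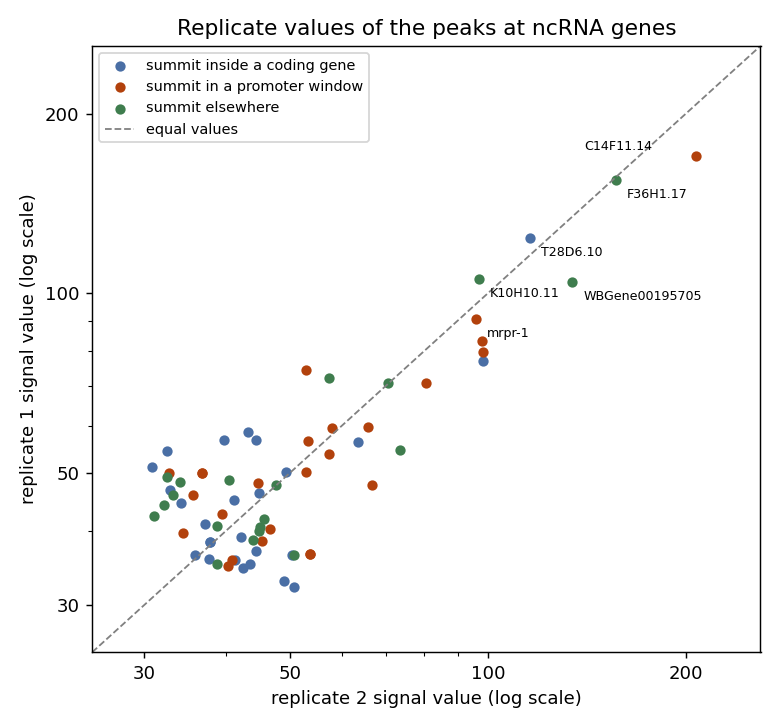
Signal value in replicate 1 (y axis) and replicate 2 (x axis), both on log scales, for the 71 conservative peaks within 100 bp of an ncRNA gene that had both values, coloured by where the summit lies. The dashed line marks equal values, and peaks near several genes carry the name of 1 of them. Points of the lower peaks at Y53C10A.23, C14C11.11 and Y39A1A.28 coincide with those of the higher peak beside them. The peaks at C14F11.14 and F36H1.17 stand above the others in both replicates, and the ratio stays between 0.634 and 1.67.

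The highest peak lay at C14F11.14, an RNA gene without an annotated function. Its height was 170 in replicate 1 and 208 in replicate 2, and its summit lay 185 bp upstream of the start of T13C5.6. F36H1.17, outside coding genes and promoter windows, followed with 155 and 156. The summits lay 37 bp and 17 bp from the 5′ ends of these genes, and both genes hold B box letters, as printed above. By the rule, both lie more than 100 bp from every structural RNA gene. The nearest such gene was 12089 bp from C14F11.14 and 56928 bp from F36H1.17.

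In the gene tba-7, which encodes an alpha tubulin, 3 overlapping members (T28D6.10, T28D6.13 and T28D6.15) shared a peak of 249, with 124 in replicate 1 and 116 in replicate 2. Its summit lay 307 bp downstream of the tba-7 start, inside a promoter window. The peak therefore cannot be assigned to the ncRNA genes rather than to the coding promoter. The printed strand of T28D6.10 holds A box letters and then B box letters. The latter lie more than 50 bp from the summit, so this peak is not counted below among those with B box letters. Near dhs-8, K10H10.11 and K10H10.14 shared a peak of 196 (106 in replicate 1 and 97.1 in replicate 2), whose B box letters lie before K10H10.11 and inside K10H10.14. Away from coding genes, 2 members given here by their gene IDs, WBGene00195705 and WBGene00199919, shared a peak of 221 (105 and 135).

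Across the 72 peaks, 6 (8.33%, 3.12 to 17.3) held B box letters of either form within 50 bp of the summit, against 16 of 701 other peaks (2.28%, 1.31 to 3.68) and 148 of 259 peaks at structural RNA genes (57.1%). The intervals of member peaks and other peaks overlap. Those 6 peaks, near C14F11.14, F36H1.17, K10H10.11, T22B2.9, T14F9.14 and M04B2.11, had signal values between 83.5 and 385 with a median of 160.4. The other 66 had a median of 85.9. The form GTTCAANNC and the A box core were searched after the data had been seen, so the higher median of these 6 peaks is a description. GTTCGANNC alone stood at 3 of 72 member peaks (4.17%, 0.868 to 11.7) and 7 of 701 other peaks (0.999%, 0.402 to 2.05), with overlapping intervals. Over gene windows, GTTCGANNC stood in 5 of 92 members with a peak (5.43%, 1.79 to 12.2) and 221 of 7213 members without one (3.06%, 2.68 to 3.49), with overlapping intervals. GTTCAANNC stood in 10 members with a peak (10.9%, 5.34 to 19.1) and 297 without one (4.12%, 3.67 to 4.6), and these intervals do not overlap. However, the 10 members are not independent. T22B2.9 and T22B2.12 share a peak and its letters, as do M04B2.11 and M04B2.13, so the interval is too narrow and the separation is a description only. Most members that hold the letters had no conservative peak.

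A group of small RNA genes shared letters upstream. The peak at mrpr-1, the RNase MRP RNA gene, had a value of 185, with 90.5 in replicate 1 and 96.0 in replicate 2. W01D2.7 had 183 (83.0 and 98.1) and F08G2.13 had 176 (79.6 and 98.5). Their summits lay 21, 19 and 14 bp inside the gene from its 5′ end. All 3 genes lie in promoter windows, of pcrg-1, W01D2.3 and F08G2.5.

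Upstream of mrpr-1, W01D2.7 and F08G2.13 the 100 bases hold both GTCNNCCGC and TATATA, a combination that stands before 5 of the 7305 members. The other two, M163.12 and K01B6.5, had no summit within 100 bp in either list. Since the letters were read from genes with peaks, the 3 of 5 is a description of those genes. GTCNNCCGC alone stood before 24 members (0.329%, 3 with a peak) and 35 of 19973 protein-coding genes (0.175%). It also stood before 22 of 346 snoRNA genes (6.36%, 2 with a peak). TATATA stood before 254 members (3.48%, 5 with a peak) and 1135 protein-coding genes (5.68%). Both stood before 5 of 129 snRNA genes, 3 of which had a peak, before 1 piRNA gene without a peak, and before no protein-coding gene. The Y RNA gene yrn-1 has TATATA but not GTCNNCCGC.

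Among the 5 genes for the signal recognition particle RNA, 4 had a conservative peak. The values were 189 at srpr-2.2 (76.9 in replicate 1 and 98.2 in replicate 2), 142 at srpr-2.1 (70.9 and 70.6), 116 at srpr-1.1 (56.4 and 63.4) and 109 at srpr-1.2 (56.7 and 44.4). The peak near srpr-3 had 81.4 in the ranked list (49.4 and 29.3). Its −log10 IDR, a measure of how well the replicates rank a peak alike, was 1.98, just under the lowest value of the conservative list, which was 2.00. Its signal value was below those of the other 4 genes.

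The 4 genes with a peak are 94.0 to 99.0% identical to each other and 81.7 to 82.5% identical to srpr-3. Between 75% and 98.1% of their 36-base words occur elsewhere in the genome, and none of those of srpr-3 do. Reads of 36 bases from within the 4 genes could thus not all be assigned to 1 gene, and longer words were not counted. The summits lay 52 bp from the 5′ end in srpr-2.1, 228 bp in srpr-2.2, 235 bp in srpr-1.2 and 343 bp in srpr-1.1, which is past the end of that gene, so they had no common position. Within 50 bp of the summit, 100% of the 36-base words occurred elsewhere at srpr-2.1, 56.1% at srpr-2.2 and 45.5% at srpr-1.2. At the srpr-1.1 summit 0% did. Whether read mapping had a part in these peaks was not tested. Over all members' peaks, 8 of 72 (11.1%) held a repeated 36-base word at the summit, against 29.7% of other peaks and 71.8% of peaks at structural RNA genes.

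Outside the srpr family, yrn-1, lfor-1, lfor-2, tts-1, tts-2 and rncs-1 had no conservative peak. No summit of either list lay within 100 bp of yrn-1, which is inside F55G1.15. The best ranked values were 62.6 at lfor-1, 59.9 at tts-2, 52.0 at rncs-1, an RNA known to act on Dicer, 39.2 at lfor-2 and 25.4 at tts-1. A conservative peak stood at mrpr-1, described above, and at linc-171 (72.0, with 42.4 in replicate 1 and 31.0 in replicate 2). Of the members without a conservative peak, W06F12.7 in lit-1 had the highest ranked value, 113, with 74.8 in replicate 1 and 25.6 in replicate 2, which differ more than any pair at the conservative peaks of members. C02D4.15 and C02D4.5 shared 83.8 (29.0 and 51.0).

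In promoter windows, the summits are given with their distance from the nearest coding start. F52D10.7 had 161 (70.7 in replicate 1 and 80.5 in replicate 2), 498 bp upstream of ftt-2, which encodes a 14-3-3 protein. C07A12.19 had 126 (74.2 and 52.9), 98 bp upstream of the protein disulfide isomerase gene pdi-2. F57B10.17 had 122 (59.6 and 65.8), 59 bp upstream of the trehalase gene tre-1, and F26D10.23 had 115 (59.4 and 57.9), 389 bp upstream of hsp-1, a heat shock protein 70 gene. F56F3.10 and F56F3.11 shared 90.1 (40.3 and 46.6), 306 bp upstream of the ribosomal protein gene rps-1. At such sites a peak cannot be assigned to the ncRNA gene rather than to the coding promoter.

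Over all 72 member peaks, 33 summits (45.8%) lay in a promoter window of a coding gene, against 372 of 701 other peaks (53.1%). Inside coding genes, the tba-7 members, srpr-2.2 (in klp-6) and srpr-1.2 (in ckb-2) were followed by Y71A12B.29 (104, in trp-4) and C35B8.6 (95.9, in vav-1). Of these, the tba-7 members, srpr-2.2 and C35B8.6 also overlapped a promoter window, so the same limit holds for them. Among all members inside coding genes, 11 of 1035 in a promoter window had a peak (1.06%), and 17 of 2122 in none (0.801%). T28B11.1 held 2 peaks, of 93.2 and 77.5, each shared by a pair of members on opposite strands, and R13H8.5 had 93.0 in an intron of daf-16, which encodes the FOXO transcription factor of insulin signalling. Away from coding genes and their promoter windows, F36H1.17, the pair WBGene00195705 and WBGene00199919, srpr-2.1 and T22B2.12 with T22B2.9 (125, with 54.6 in replicate 1 and 73.4 in replicate 2) were highest, and H37A05.5 had 123 (72.0 and 57.4).

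The summit of the best peak lay inside the gene for 61 of the 92 members, upstream for 13 and downstream for 18. Upstream summits made 41.9% (24.5 to 60.9) of the 31 outside the gene, an interval that holds an equal split. Over all 92, the median distance from the 5′ end was 65 bp into the gene. In promoter windows 28 of 36 summits lay inside the member, in coding genes 20 of 28 and elsewhere 13 of 28. Because many genes are shorter than the window of 100 bp on each side, and members on opposite strands share summits, these counts describe overlap more than orientation.

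**Figure D5:**
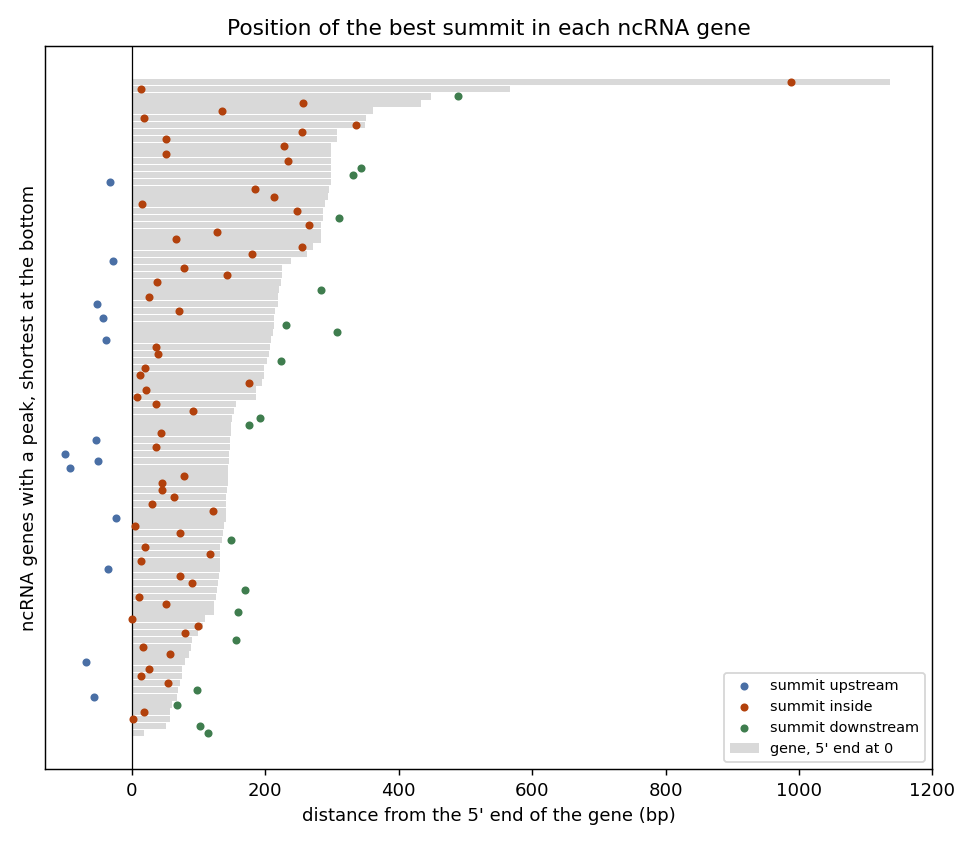
Position of the best conservative summit (points) relative to the 5′ end of each of the 92 ncRNA genes with a peak (x axis, bp), with the gene drawn as a grey bar and genes sorted by length. Orange points lie inside the gene (61), blue points upstream (13) and green points downstream (18), and no summit side dominates outside the genes.

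Sequence at the summits was described with motifs searched on both strands within 50 bp. The Krüppel-like box, CCACCC or CCGCCC, stood at 12 of 72 member peaks (16.7%, 8.92 to 27.3) and 83 of 701 other peaks (11.8%, 9.54 to 14.5). CCACCC stood at 8 member peaks (11.1%, 4.92 to 20.7), among them those of WBGene00199919 and F08G2.13, and at 22 other peaks (3.14%, 1.98 to 4.71). These intervals only just clear each other. The 8 include the lower peak of C14C11.11 (14.8), which rests on the same pair of replicate peaks as the higher one, so the separation is a description only. CCGCCC stood at 4 (5.56%, 1.53 to 13.6) and 65 (9.27%, 7.23 to 11.7), with overlapping intervals. GAGAGA stood at 14 member peaks (19.4%, 11.1 to 30.5) and 70 other peaks (9.99%, 7.87 to 12.4), with overlapping intervals, and CGCGCA at 11.1% and 11.4%. The GC content of the 101 bases at the summit had a median of 51.0% at member peaks, 47.5% at other peaks and 52.5% at peaks at structural RNA genes. Members with a peak had a median gene GC content of 50.8% and members without one 43.2%. The part of GC content in the density near members was not tested.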

How the data were processed

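The data were ChIP-seq peak lists, and their build is ce11 per the labels. As deposited by the authors, they are ranked and thresholded lists made by irreproducible discovery rate (IDR) analysis, for both replicates together and for each alone. Neither the peak caller nor the aligner is named: they were not given in the sources used here. The deposited signal value of a peak is its height from the authors' caller, not normalized between lists, and was used to rank peaks within a list. A replicate's value was read from its own ranked list at the exact position of the component peak recorded in the list of both: 59026 of 111583 peaks had one for replicate 1 and 46727 for replicate 2, and no component matched the list of the other replicate. The deposited score of a peak is a capped log2 form of the IDR and was not tested. The −log10 IDR and the summit offset were taken as deposited, and the deposited −log10 q-value was not used. No column of other samples was found (0). No read numbers are given, so the depth is unknown.

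The gene models were Ensembl release 115. A gene counted when a summit lay within 100 bp. Location was assigned in the order inside a coding gene, promoter window, elsewhere. Shares have exact 95% binomial (Clopper-Pearson) intervals and densities exact Poisson intervals, for counting error only. With 1 group no test between conditions was possible, and none was made over regions. The members, lists and motifs were chosen with earlier results of these data known. Named genes were the 20 with the highest conservative signal, the 5 highest of each class, members with a peak and a gene name, a fixed list of known ncRNAs, families with several peaks, and the 5 highest ranked members without a conservative peak. Genes from the fixed list that were not members (lep-5, a lincRNA gene, and terr-1 and srpr-1, not found by name) were left out. A few lower peaks in coding genes and promoters were named after their values were seen. Repeated 36-base words were counted in the genome on both strands. The interval steps were tested on simulated data. Python 3.11.15, numpy 2.4.6, pandas 2.3.3, scipy 1.17.1, matplotlib 3.10.9 and Biopython 1.88 were used. Alternatives were other lists, single replicates, other distances, other class rules and higher peaks only.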

Additional observations from a re-analysis of the deposited data

How the results depend on the processing

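Of 75 alternative values, 51 stayed within 1.5 times the count or within the interval of the value reported, and 24 moved. The ratio of summit density near members to that outside was 2.93 to 2.96 with the list of a single replicate, 4.82 for summits inside the gene, 2.18 for peaks at or above the median signal, and 4.59 with structural RNA windows left out of the base rate, a choice made after the data were seen. The members with a thresholded peak numbered 32 to 35 with the list of a single replicate, which holds fewer peaks, and 32 at or above the median signal. Shares were then 0.222 to 0.317% inside coding genes, 0.903 to 1.29% in promoter windows and 0.308% elsewhere for single replicates, and 0.222, 1.10 and 0.308% for the higher peaks. Within 250 bp the share inside coding genes was 1.49%, and for summits inside the gene the share elsewhere was 0.501%. The density near members was 12.3 to 12.8 per Mb for single replicates, 25.5 within 250 bp, 47.7 inside the gene and 11.0 for the higher peaks. Ranked-list members numbered 1984 to 2332 with single replicates and 672 for the 10000 highest peaks. Fewer peaks or other windows enter by construction. The side of the summits kept its value within its interval in the alternatives run, and had none for summits inside the gene. No paired analysis was possible because there is 1 group. With peak lists alone, and 2 replicates, a peak short of the threshold is not shown to be absent.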
